A study of Homo sapiens with 2 samples.

Results

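AP-1 is a family of paired transcription factors, and the genes of 10 of its subunits and relatives (FOS, FOSB, FOSL1, FOSL2, JUN, JUNB, JUND, ATF3, MAFF and MAFK) were followed on 2 arrays. Every probe set whose only gene symbol in the platform annotation was one of these names was taken. This gave 22 of the 54675 probe sets, for 9 of the 19775 genes with a probe set of their own; MAFK had none and was not analysed here. The arrays came from cells labelled U87, an established glioblastoma line, of which 1 sample had received a control siRNA without a target and 1 an siRNA against FOXM1, the gene of a forkhead transcription factor of the cell division cycle. Both samples were grown in serum-containing medium, transfected with the same lipid reagent and collected at 48 hours. With 1 array in each group there was no SD between samples and no test, so each value below describes those 2 arrays, which are named by their labels as the non-target array and the FOXM1 siRNA array.

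AP-1 proteins share a basic region that touches DNA and a leucine zipper that joins 2 subunits. Jun proteins pair with one another or with Fos proteins, whereas Fos proteins need a Jun partner. Growth factors, serum and stress act through MAP kinases on both the transcription and the activity of these subunits, and AP-1 in turn binds the promoters of genes for proteases, cytokines and cell cycle regulators. FOS is induced briefly, while FOSL1 and FOSL2 are later members whose products persist when ERK signalling is sustained. In glioblastoma, Fos-related proteins are known for their place in the mesenchymal expression state.

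Several measures of the samples differed between the 2 arrays, and their part in the results below was not tested. FOXM1 read 1520 and 1343 on the non-target and FOXM1 siRNA arrays, 0.884 times the control value, a log2 difference of -0.18, so the targeted transcript did not check the labels. The floor was set at the 90th percentile over 135 olfactory receptor probe sets, 60.8 on the non-target array and 77.7 on the other. A signal under it is treated as not above background. The 9p21 genes CDKN2A, CDKN2B and MTAP, which U87 cells are known to lack, were all above the floor on the non-target array, and only CDKN2A on the other, with summed signals of 4436 and 529. Of 7 epithelial markers, 4 were above the floor on each array, but their summed signal was 12768 on the non-target array and 1111 on the other. The larger sum came mostly from DSP (9707 and 336) and KRT18 (2655 and 380). CDH1 (113 and 20.9) also read lower on the FOXM1 siRNA array, where it was below the floor. KRT8 (220 and 265) and EPCAM (48.1 and 98.8, the first below the floor) read higher. With values raised to the floor, these 3 differed by less than 2-fold. Of 7 fibroblast markers, 4 and 5 were above the floor, with sums of 1923 and 21415, mostly from COL1A1 (1119 and 11394) and COL1A2 (515 and 8631). The 4 COL1A1 probe sets above both floors ran from -0.06 to 3.35 on the log2 scale. Of the 6 detected fibroblast markers, 5 were at least 2-fold higher, beside 16% of all detected genes. Among the 5, DCN (46.5 and 266) and PDGFRB (31.1 and 173) were detected on the FOXM1 siRNA array only. COL3A1 read 61.0 and 59.6, the first just above its floor and the second below it. Among 10 glial markers, 6 and 5 were above the floor with sums of 23343 and 42090. Most of both sums came from VIM (21179 and 40017), which is also in the list of AP-1 targets below. SOX2 (680 and 59.2) and S100B (87.8 and 2.21) read lower on the FOXM1 siRNA array, below its floor. NES (54.0 and 261, the first below the floor), SLC1A3 (874 and 1278) and ALDH1L1 (115 and 143) read higher, and OLIG2 read 270 and 266. GFAP, AQP4 and SLC1A2 were below both floors. Of 6 neuronal markers, 4 were above the floor on each array (8274 and 13595), with most of both sums from TUBB3 (7687 and 10375). SNAP25 (102 and 1884) and MAP2 (89.8 and 985) were also higher on the FOXM1 siRNA array, and NEFL read 309 and 272. Of 5 endothelial markers, 1 and 3 were above the floor (111 and 448). None of the 4 immune markers measured was above either floor. The ratio of 3′ to 5′ signal of the ACTB control, a sign of RNA integrity, was 6.79 and 4.21, and that of GAPDH 1.26 and 1.09. An effect of the siRNA, a difference between the cells and a difference between the RNA preparations cannot be told apart here, nor can fewer cells of a type and less RNA per cell.

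The members differed widely in the size of the difference. FOSL1, FOSL2 and MAFF were 24.1-, 9.43- and 10.1-fold higher on the FOXM1 siRNA array, in the brightest probe set of each by mean signal. FOS, JUNB, JUND and ATF3 differed by 1.22- to 1.44-fold, and JUN lay on the 2-fold line at 2.003-fold. FOSB was not above the floor on either array. Counted by gene, 2-fold was passed upwards by 4 of the 8 detected members and downwards by 0, against 16% and 15.4% of all 13865 detected genes. The median log2 difference of the 8 was 0.77, and that of all detected genes 0.01. The 4 higher members include JUN, which was 2-fold or more in 5 of 11 alternatives in processing that kept the 2-fold threshold. FOSL1, FOSL2 and MAFF were so in all 11. Alternatives in the floor could not move these 4 genes, whose counted probe sets stayed above it on both arrays. Among the other alternatives, JUN passed 2-fold only with loess scaling, at 1.004 on the log2 scale.

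The only error that 2 single arrays allow is the spread between probe sets of the same gene. Over the 5476 genes that had more than 1 probe set above both floors, the log2 differences of the 2 brightest probe sets differed with an SD of 0.65, which corresponds to 0.46 for 1 probe set. This spread holds nothing of the variation between cultures. By size, the order was FOSL1, MAFF, FOSL2, JUN, FOS, ATF3, JUNB and JUND. The step from FOSL2 down to JUN was 2.24 on the log2 scale, 3.42 times the SD of a pair, and that from FOSL1 to MAFF was 1.25, 1.92 times it. The remaining neighbours in this order lay at most 0.72 of that SD apart. No step of the order is settled, since the spread leaves out variation between cultures. The order also depends on the probe set: FOSL2 gave 3.96 in 228188_at, above both MAFF probe sets. FOSL1 has a single probe set.

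The promoters of 4 members are shown because the subunit genes are themselves known targets of AP-1 and of its relatives ATF and CREB. FOSL2 and MAFF are the genes with the largest differences that had a promoter entry, and FOS and JUN are the founding subunits, with smaller differences. Each sequence covers the 250 bases before the annotated start (RefSeq, GRCh38.p14), read 5′ to 3′ along the gene's strand. Capitals mark TGACGTCA (the cyclic AMP response element, CRE), its core TGACG in either direction, and TGACATCA, the site known from the JUN promoter. FOSL2 lies at chr2:28392608-28392857 on the plus strand, MAFF at chr22:38201744-38201993 on the plus strand, JUN at chr1:58784048-58784297 on the minus strand and FOS at chr14:75278578-75278827 on the plus strand.
FOSL2: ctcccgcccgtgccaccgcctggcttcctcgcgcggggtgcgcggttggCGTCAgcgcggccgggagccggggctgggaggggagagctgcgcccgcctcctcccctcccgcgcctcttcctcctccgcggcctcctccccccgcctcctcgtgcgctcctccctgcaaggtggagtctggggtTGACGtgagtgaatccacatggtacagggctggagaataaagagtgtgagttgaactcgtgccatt
MAFF: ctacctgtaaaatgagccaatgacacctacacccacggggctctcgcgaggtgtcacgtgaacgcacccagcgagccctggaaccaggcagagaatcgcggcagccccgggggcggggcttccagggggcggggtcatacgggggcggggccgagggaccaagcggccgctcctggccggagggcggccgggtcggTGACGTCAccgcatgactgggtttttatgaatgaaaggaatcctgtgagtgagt
JUN: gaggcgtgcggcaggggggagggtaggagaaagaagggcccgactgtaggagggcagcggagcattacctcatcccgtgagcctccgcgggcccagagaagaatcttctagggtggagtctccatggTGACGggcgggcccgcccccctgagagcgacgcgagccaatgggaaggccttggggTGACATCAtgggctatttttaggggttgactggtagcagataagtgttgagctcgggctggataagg
FOS: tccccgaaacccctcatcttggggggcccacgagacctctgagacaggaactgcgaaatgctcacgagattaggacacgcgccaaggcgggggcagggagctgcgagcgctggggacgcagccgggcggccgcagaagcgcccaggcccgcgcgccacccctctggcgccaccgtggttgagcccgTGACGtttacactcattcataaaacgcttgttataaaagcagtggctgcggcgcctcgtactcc

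Entries were found for 8 of the 10 members, 10 windows in all since ATF3 and MAFF had 2 each. Motifs were searched on both strands. The complete CRE, TGACGTCA, began 54 bases before the start of MAFF, in the window shown, and 200 bases before that of JUND, and it was present in 1.65% of all 35116 promoter windows. Its core TGACG, which every complete CRE contains, was in 7 of the 10 member windows and in 21.2% of all. It began 64 bases before the start of FOS and 66 before that of FOSL2. TGACATCA began 67 bases before the start of JUN and 123 before that of ATF3, and 2.37% of all windows held it. The TPA response element TGACTCA, the preferred site of Fos and Jun pairs, was in none of the 10 member windows and in 4.2% of all. In the longer window of 300 bases, which runs past the start, it occurred in FOSL2 only among the members, at base 5 of the transcript, and in 4.95% of all. The forkhead motif TGTTTA was in 1 member window, that of JUNB, and in 11% of all. These matches describe letters in the windows: MAFF with a 10.1-fold difference and JUND with a 1.22-fold difference both held the complete CRE.

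**Figure D1:**
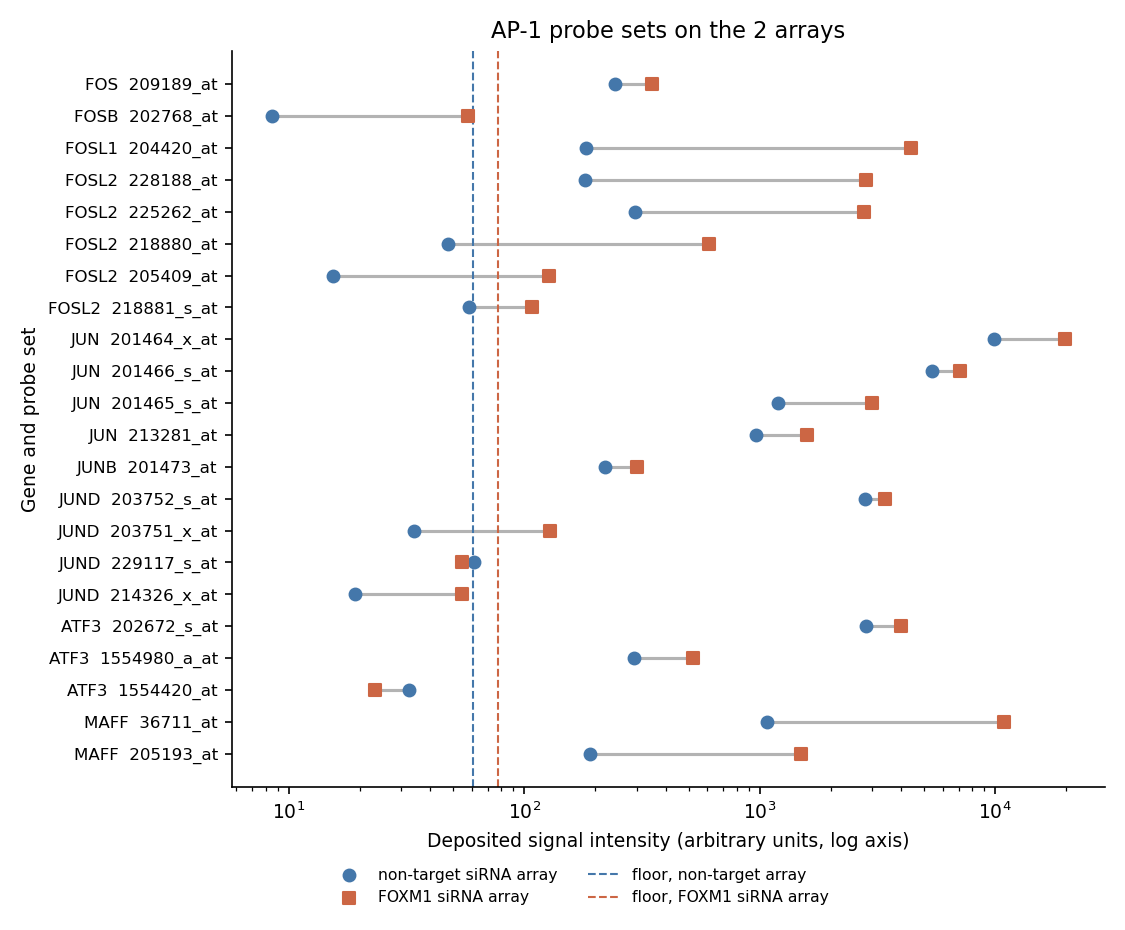
Deposited signal of each of the 22 AP-1 probe sets (rows) on the non-target array (circles) and the FOXM1 siRNA array (squares), on a log axis in arbitrary units; dashed lines mark the floors of 60.8 and 77.7. The probe sets of FOSL1, FOSL2 and MAFF have the widest gaps among those above both floors, and those of JUN start from bright signals on both arrays.

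Among the Fos genes, FOSL1 stood highest in difference. FOSL1 encodes FRA-1, a Fos protein linked to invasion and mesenchymal traits in tumour cells. Its single probe set, 204420_at, read 182 on the non-target array and 4400 on the FOXM1 siRNA array. The log2 difference of 4.59 ranked 20 from the highest among 11395 genes above both floors. The lower signal was 2.999 times its floor and the higher one 56.6 times, so the fold rests on a dim but measured control value. With no second probe set there was no check of this value within the gene, and a pseudocount of 50, which damps dim signals, gave 4.26.

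FOSL2, which encodes the related protein FRA-2, had 5 probe sets, and the signal of each was higher on the FOXM1 siRNA array. Probe set 225262_at read 295 against 2786, a 9.43-fold difference. Probe set 228188_at read 181 against 2816, or 15.6-fold. These are the 2 probe sets above both floors, and their log2 differences of 3.24 and 3.96 had an SD of 0.51. The other 3 were below the floor of the non-target array, so that only a lower bound can be given. Probe set 218880_at went from 47.7 to 610 and was at least 10.0-fold higher. Probe set 205409_at went from 15.4 to 127, at least 2.10-fold, and 218881_s_at from 58.1 to 108, at least 1.78-fold. The bounds of the last 2 are small because their signals on the FOXM1 siRNA array were only 1.64 and 1.39 times its floor.

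FOS itself, the subunit whose transcript is lost within hours of a stimulus, differed far less. Its probe set 209189_at read 243 and 350 on the non-target and FOXM1 siRNA arrays, a 1.44-fold difference (log2 0.53), close to the spread of 0.46 for a probe set. FOSB, a short-lived relative of FOS, read 8.49 and 57.6 in its only probe set, below both floors, and no fold is given. Within the Fos family, the log2 differences of the 3 detected genes ran from 0.53 to 4.59, a gap of 4.06.

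The Jun genes were closer together, with log2 differences of 0.29 to 1.002 in their brightest probe sets, a gap of 0.71. JUN, the founding subunit and a main substrate of the JNK kinases, was measured by 4 probe sets, all well above both floors. Probe set 201464_x_at read 9900 and 19826 on the non-target and FOXM1 siRNA arrays, a 2.003-fold difference. Probe set 201465_s_at gave 1191 and 2996, or 2.51-fold. Probe set 213281_at gave 966 and 1584, or 1.64-fold, and 201466_s_at gave 5388 and 7092, or 1.32-fold. The 4 went the same way, with an SD of 0.40 on the log2 scale. Of these, 2 passed 2-fold and 2 did not, and the brightest is of the _x_at kind, whose probes can also match other transcripts.

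JUNB, a Jun protein that can restrain JUN on some promoters, read 220 and 303 in probe set 201473_at, a 1.38-fold difference (log2 0.46). JUND is the member of the family that is expressed most steadily in resting cells. Its one probe set above both floors, 203752_s_at, read 2802 and 3424, a 1.22-fold difference (log2 0.29), below the spread of a probe set. The other 3 JUND probe sets were near or under background. Probe set 203751_x_at went from 33.9 to 129, at least 2.12-fold higher, while 229117_s_at read 61.5 and 54.5, above the floor on the non-target array only, with no fold. Probe set 214326_x_at, at 19.1 and 54.3, lay below both floors. The dim and the bright probe sets of JUND thus gave different sizes, and the bright one is the one counted.

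ATF3, a stress-induced factor that pairs with Jun proteins, differed little. Its brightest probe set, 202672_s_at, read 2832 and 3990, a 1.41-fold difference, and 1554980_a_at read 294 and 520, or 1.77-fold. Their log2 differences were 0.49 and 0.82. Probe set 1554420_at, at 32.5 and 23.3, lay below both floors. MAFF, by contrast, was among the members with the largest difference. It encodes a small Maf protein, which binds DNA with partners of the cap-and-collar family such as NFE2L2 and has no activation domain of its own. Probe set 36711_at read 1078 on the non-target array and 10896 on the FOXM1 siRNA array, a 10.1-fold difference. Probe set 205193_at read 190 and 1500, or 7.91-fold. The log2 differences of 3.34 and 2.98 had an SD of 0.25. Ranked from the highest among the 11395 genes above both floors, MAFF was 221 and FOSL2 237, while JUN was 1737 and JUND 4087.

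**Figure D2:**
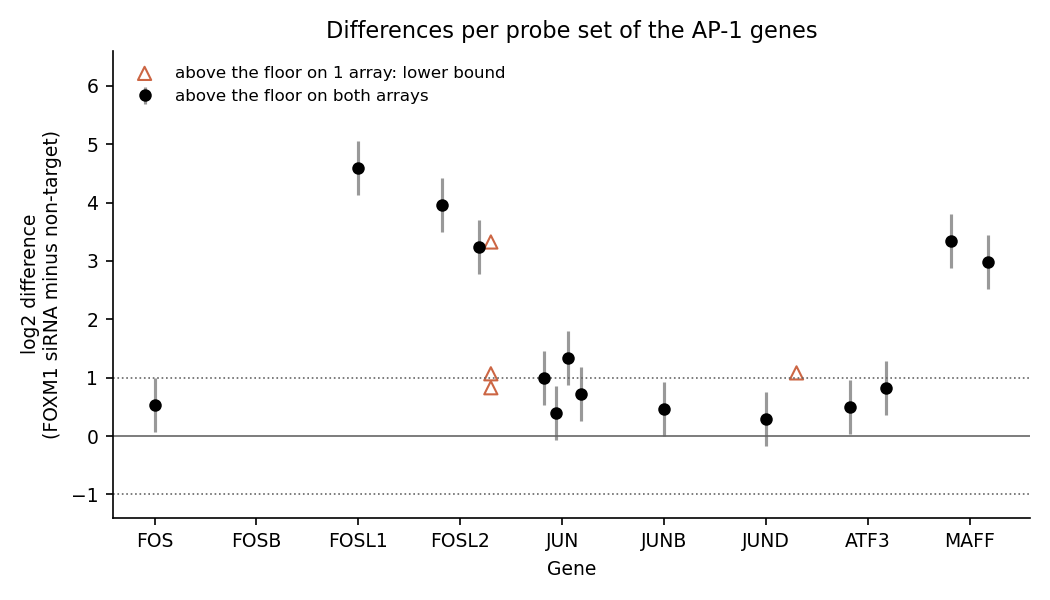
Log2 difference (FOXM1 siRNA array minus non-target array) of each AP-1 probe set, by gene; filled points are probe sets above both floors, with bars of ±0.46, the SD of a probe set within these arrays (not between samples), and open triangles are lower bounds. FOSL1, FOSL2 and MAFF have filled points from 2.98 to 4.59, those of the other genes lie at or below 1.33, and FOSB has no point because it was below both floors.

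Counted by probe set, 19 of the 22 were above the floor on at least 1 array, and 10 of these were at least 2-fold higher and 0 lower. Over all 26582 detected probe sets of a single gene, the shares were 15.4% higher and 13.6% lower. Probe sets of 1 gene share their transcript, and 6 of the 10 belong to FOSL2 and JUN. All 14 probe sets above both floors had a higher signal on the FOXM1 siRNA array. That uniform direction depends on the scale. The 18 hybridisation controls, added in equal amount to both samples, had a median log2 difference of 0.30. With these set equal, JUND moved to -0.01, and FOS, JUNB and ATF3 to 0.22, 0.16 and 0.19. FOSL1, MAFF and FOSL2 were then at 4.29, 3.03 and 2.93. Under that scaling the all-gene median went from 0.01 to -0.29, and the split of all genes past 2-fold from 2218 higher and 2132 lower to 1567 higher and 3200 lower.

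**Figure D3:**
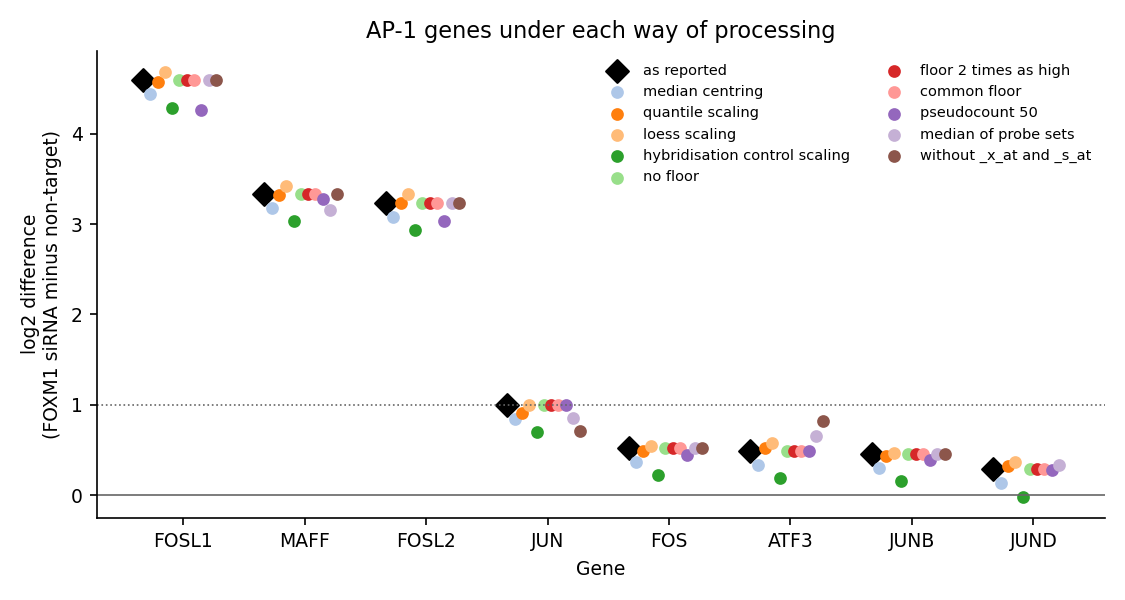
Log2 difference (FOXM1 siRNA array minus non-target array) of each detected AP-1 gene as reported (diamonds) and under the alternatives in scaling, floor, pseudocount and choice of probe set (circles). FOSL1, MAFF and FOSL2 stay between 2.93 and 4.68, JUN lies on both sides of the dotted 2-fold line, and JUND is at -0.01 with the hybridisation controls set equal.

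Other genes around AP-1 were read from 4 further lists. They were chosen with earlier results of these data known, so their counts describe these lists and are not independent support. Of 19 other basic leucine zipper genes that pair with AP-1 or small Maf proteins or are close to them, 14 were detected. Of these, 3 passed 2-fold upwards and 2 downwards, shares of 21.4% and 14.3% that lie near the 16% and 15.4% of all detected genes. The median log2 difference was 0.35. DDIT3, a stress-induced partner of other zipper proteins, read 749 and 4681 on the non-target and FOXM1 siRNA arrays, a 6.25-fold difference. NFE2L1, a cap-and-collar factor and partner of small Mafs, was 2.38-fold higher. JDP2, a repressor that pairs with Jun, gave 2.31-fold in the brighter of its probe sets and -0.12 on the log2 scale in the other. The large Maf gene MAF was 3.55-fold lower (955 against 269), and the cap-and-collar gene NFE2L3 at least 5.97-fold lower.

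Genes of the kinases and regulators that act on AP-1 gave shares near those of all detected genes (16% higher and 15.4% lower). All 28 with a probe set were detected. Of these, 3 were at least 2-fold higher and 5 lower, shares of 10.7% and 17.9%, and the median was -0.09. Among the 5, MAPK12, named because its probe sets conflict, was counted from one at -1.29 on the log2 scale. Its other probe set above both floors gave 0.60. The ternary complex factor gene ELK3 was 3.68-fold higher (1505 against 5534), the JNK gene MAPK10 3.25-fold and the p38 gene MAPK11 at least 4.12-fold. MAP2K6, a kinase that activates p38, was 5.18-fold lower (522 against 101), and MAP3K1, which acts above JNK, 4.12-fold lower (2127 against 516).

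Other immediate early genes, which like FOS are switched on by serum or stress without new protein synthesis, were mostly higher. Of 28 detected, 16 were at least 2-fold higher and 1 was lower, shares of 57.1% and 3.57% beside 16% and 15.4% of all detected genes. Among the 16, DUSP1, named for this conflict, was counted from a probe set at 2.08 on the log2 scale. Its other probe set above both floors gave -0.91. The median of the 28 log2 differences was 1.44 (2.72-fold). The 11 other detected genes did not pass 2-fold, among them NR4A3 with a lower bound only (29.98 against 119, the first below the floor), named after its values were seen. DUSP6, a phosphatase that turns off ERK, read 443 and 8378 on the non-target and FOXM1 siRNA arrays, an 18.9-fold difference. PHLDA1 was 14.9-fold higher, with log2 differences from 2.59 to 4.46 over 6 probe sets. The small GTPase gene GEM was 9.48-fold and the mRNA decay factor gene ZFP36L1 6.55-fold higher. IER5 was the one lower gene, at 2.17-fold (6940 against 3199).

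Genes known as AP-1 targets in other cells gave the highest median of these lists. As the lists were chosen with earlier results of these data known, this rank may reflect the choice of genes. Of 20 detected, 17 were at least 2-fold higher and 1 lower, and the median log2 difference was 2.61 (6.12-fold). The shares were 85% and 5%, beside 16% and 15.4% of all detected genes. Some of the higher targets were above the floor on 1 array only. With genes above both floors only, 14 of 17 were at least 2-fold higher and 1 lower. The urokinase gene PLAU read 556 and 8719 on the non-target and FOXM1 siRNA arrays, a 15.7-fold difference. The collagenase gene MMP1, a classical AP-1 target, read 113 and 1595, or 14.2-fold. The cytokine gene LIF was 14.1-fold higher (347 against 4889) and the osteopontin gene SPP1 13.2-fold (1483 against 19599). EZR, which encodes the membrane linker ezrin, was 2.03-fold lower in its brightest probe set, and its 4 probe sets ran from -1.24 to -0.81 on the log2 scale. Binding of AP-1 was not measured, and the list is of transcripts only. The summed fibroblast marker signal of 1923 and 21415 moved in the same direction, and its part in these values was not tested.

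**Figure D4:**
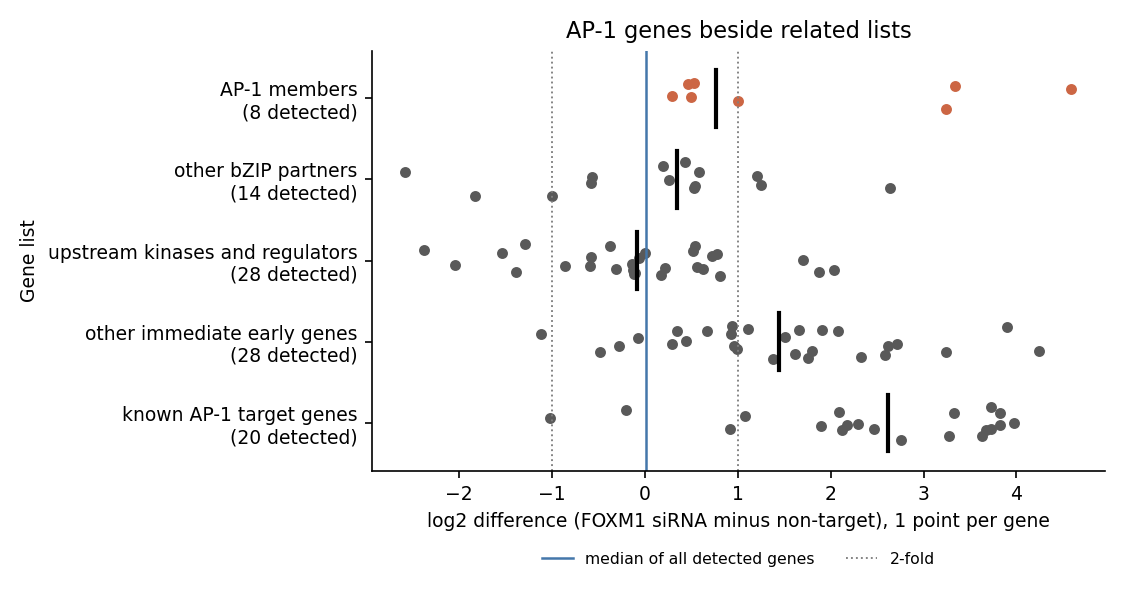
Log2 difference (FOXM1 siRNA array minus non-target array) of each detected gene of the AP-1 members and of 4 related lists; 1 point is 1 gene, thick bars are list medians, the solid line is the median of all detected genes (0.01) and dotted lines mark 2-fold. Medians run from -0.09 for upstream kinases and regulators to 2.61 for known AP-1 targets, with 0.77 for the AP-1 members.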

How the data were processed

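RNA of 2 samples labelled U87 was measured on 1 Affymetrix-type array each after 3' IVT labelling, a method that favours the 3' end of a transcript, per the labels' protocols. The deposited values are linear signal intensities made with MAS5, per the submitters' processing notes; the sources used here give no version, settings or genome build. Their trimmed means (2% off each end) were 500.07 on both arrays. The deposited values carry no detection calls or replicate arrays, and the number of arrays limits the precision.

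Of the 42898 annotated probe sets, 41097 had 1 gene symbol and 1801 several, which named no gene. Symbols were updated through the gene ID (GRCh38.p14 gene table). Signals were raised to the array's floor before log2, and a gene was read from its probe set of highest mean log2 signal. A gene was detected if that probe set passed the floor on 1 array or both; for 1 array a fold is a bound. The members and gene lists were chosen with earlier results of these data known. Every member is named; from each related list the up to 4 largest differences above both floors are named, and any gene in a direction with 3 or fewer. Marker lists are given as sums, with some of their genes named. Some list members had no probe set of their own and were not analysed here. Python 3.11.15 (numpy 2.4.6, pandas 2.3.3) and, for quantile and loess scaling (span 0.3), limma 3.58.1 in R 4.3.3 were used; the gene table was checked on simulated data.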

Additional observations from a re-analysis of the deposited data

How the results depend on the processing

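The alternatives were median centring, quantile, loess and hybridisation control scaling, a pseudocount of 50, a floor 2 times higher, a common floor, no floor, the median over probe sets of a gene, omission of _x_at and _s_at probe sets, a 1.5-fold threshold and genes above both floors only. Of the AP-1 members, 3 or 4 passed the threshold upwards and 0 downwards in each of these, and their median log2 difference ran from 0.46 to 0.82. The threshold was 1.5-fold in the alternative of that name and 2-fold in the rest. Of all detected genes, 11.3% to 26.1% passed it upwards and 13.1% to 26.8% downwards. The change from 4 to 3 members was JUN, at 0.70 with the hybridisation controls set equal and 0.71 without _x_at and _s_at probe sets. JUND was the one member that changed sign, to -0.01, with the hybridisation controls set equal; all its probe sets are _x_at or _s_at, so it gave no value without them. Without _x_at and _s_at probe sets, the detected AP-1 targets fell from 20 to 11, so this count is over a smaller list. All 11 were higher (median 3.22) and 0 lower, beside 16.1% and 15.1% of all detected genes. Under the same omission, 1 of 11 other zipper genes and 3 of 22 upstream regulators were lower. With quantile and loess scaling 0 AP-1 targets were lower. With the hybridisation controls set equal 1 other zipper gene was higher, and with genes above both floors only 1 was lower. At 1.5-fold, 7 of 28 upstream regulators were higher and 7 lower, beside 26.1% and 26.8% of all detected genes. Of the 175 values for counts and medians, 165 moved by no more than 1.5 times (counts) or by less than the SD of a probe set (medians). No paired analysis was possible because each group has 1 sample. FOS, JUNB and FOSL1 on the non-target array were only 3.99, 3.62 and 2.999 times the floor, which limits the precision of their folds.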
